A study of Homo sapiens with 4 samples.

Results

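The genes described here are 34 genes of glycolysis and of the response to low oxygen, chosen by symbol and found, all 34 of them, among the 57820 genes of the expression table. They comprise the glucose transporter SLC2A1, 15 glycolytic enzymes, 3 regulators of glycolytic flux, both main lactate dehydrogenase subunits, 5 genes of the hypoxia-inducible factor (HIF) pathway itself and 8 genes known as HIF targets. Of the 34, 32 reached a mean of 1 FPKM (a read count divided by transcript length and by the reads of the library) over the 4 libraries and could be tested, beside 14068 genes tested in all. HK2 and ANKRD37 did not reach that mean and are given by their values only.

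The cells were A549, a line established from a human lung adenocarcinoma and called NRF2-activated in the series title. Cells had been transfected with an siRNA against the transcription factor CEBPB, giving 1 library for each of siRNA-1 and siRNA-2. The other 2 libraries came from cells given a control siRNA. All cells grew in DMEM with 10% serum at 20% oxygen, so no library comes from hypoxic cells; medium was renewed at 24 h and RNA taken another 24 h later. Nothing in the labels says whether the control libraries were separate cultures. The p-values thus speak only for the spread among these 4 samples, and that spread may be technical. Where both siRNAs form 1 group, the spread also holds any difference between siRNA-1 and siRNA-2.

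Glycolysis turns glucose into pyruvate, and lactate dehydrogenase turns pyruvate into lactate, which lets glycolysis run on. HIF-1 alpha (HIF1A) and HIF-2 alpha (EPAS1) are transcription factor subunits that are hydroxylated by the EGLN enzymes when oxygen is present, bound by the VHL protein and degraded. In hypoxia they escape this. Between them, though not each alone, they raise the transcription of glycolytic genes and of genes for blood vessel growth, pH control and collagen processing. Because oxygen acts on HIF alpha protein, transcript levels do not report HIF activity by themselves.

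The knockdown was visible in its target. CEBPB was at 12.9 FPKM with siRNA-1 and 10.97 FPKM with siRNA-2, against 78.7 and 80.9 FPKM in the controls. The log2 change on the log2(FPKM + 1) scale was -2.65 ± 0.17 (SE, n = 2 libraries per group, limma adjusted p = 0.0167). Without control 1 or without control 2 the log2 change was -2.67 and -2.63, but the call was lost (limma adjusted p = 0.461 and 0.328), as it was with no filter on low values (adjusted p = 0.262). Libraries summed to between 494066 and 528606 FPKM, and mitochondrially encoded genes took 16.9% of FPKM with siRNA-1 and 14.4% with siRNA-2, against 17.5% and 18.2% in the controls. The authors' mean normalized counts sum to 8341083 per library, which is the only depth used here, and the mean counts given below show the reads behind a gene. The 6 epithelial markers summed to 3024 and 4003 FPKM in the CEBPB siRNA libraries, against 4270 and 5835 FPKM in the controls. They did not go one way: KRT8, KRT18 and EPCAM were lower without overlap, and KRT7 (1200 and 1162 FPKM, against 671 and 777 FPKM) and KRT19 (5.32 and 7.38 FPKM, against 2.41 and 3.28 FPKM) were higher without overlap. Of the alveolar markers, NKX2-1, SFTPA1, SFTPA2, SFTPB and SFTPD were listed at 0 in all 4 libraries. ABCA3, a lipid transporter of the same list, was at 24.8 and 22.0 FPKM with the CEBPB siRNAs, against 14.6 and 11.2 FPKM in the controls, and the authors' deposited table calls it higher (log2 change 0.79, adjusted p = 0.0473). The authors' deposited table also calls KRT18 lower (log2 change -1.21, adjusted p = 0.0317). It calls the fibroblast marker COL1A1 higher (log2 change 1.88, adjusted p = 0.00621). NAPSA was near 1 FPKM or below in every library, with a mean normalized count of 16.4. Of 10 leukocyte, endothelial and erythroid markers only CD68 reached 1 FPKM (16.8 and 4.69 FPKM with the CEBPB siRNAs, against 7.09 and 9.72 FPKM, but with a mean normalized count of only 0.754), and of 8 fibroblast markers only COL1A1 did, at 4.22 and 2.24 FPKM with the CEBPB siRNAs, against 0.717 and 0.573 FPKM in the controls. Summed over the list, the fibroblast markers stood at 4.83 and 2.92 FPKM, against 0.857 and 0.773 FPKM; the part of these markers in the results was not tested. In bulk RNA, fewer cells of a kind and less RNA per cell cannot be told apart.

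Both HIF alpha subunits were lower after CEBPB knockdown, and they had the lowest log2 changes of the tested members. HIF1A was at 92.3 FPKM with siRNA-1 and 97.7 FPKM with siRNA-2, against 190.7 and 200.6 FPKM in the controls. The siRNA libraries nearly coincided, at 0.471 and 0.499 of the control mean, and both lay far below both controls. EPAS1 was at 27.9 FPKM with siRNA-1 and 80.4 FPKM with siRNA-2, against 168 and 152 FPKM in the controls. Here both siRNA libraries were again below both controls, but siRNA-1 reached 0.174 of the control mean and siRNA-2 only 0.502. The mean normalized count was 5074 for HIF1A and 4871 for EPAS1, so neither value rests on few reads.

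The authors' deposited table, a DESeq2 comparison of the same 4 libraries, has both subunits lower, HIF1A by a log2 change of -1.09 ± 0.21 (SE, adjusted p = 3.37e-05) and EPAS1 by -1.52 ± 0.39 (adjusted p = 0.00423). With limma over all genes neither passed. The log2 change was -1.04 ± 0.15 for HIF1A (limma adjusted p = 0.0983) and for EPAS1 -1.73 ± 0.47 (limma adjusted p = 0.252). Both had an unadjusted limma p below 0.05. When siRNA-1 and siRNA-2 were fitted as separate groups, HIF1A differed from the controls by -1.08 with siRNA-1 (limma adjusted p = 0.0136) and by -0.99 with siRNA-2 (adjusted p = 0.0618). EPAS1 differed from the controls by -2.48 with siRNA-1 (limma adjusted p = 0.00585) and by -0.98 with siRNA-2 (adjusted p = 0.0698). That fit takes its spread from the 2 controls alone, so the single library of each siRNA is assumed to be as variable as they are.

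**Figure D1:**
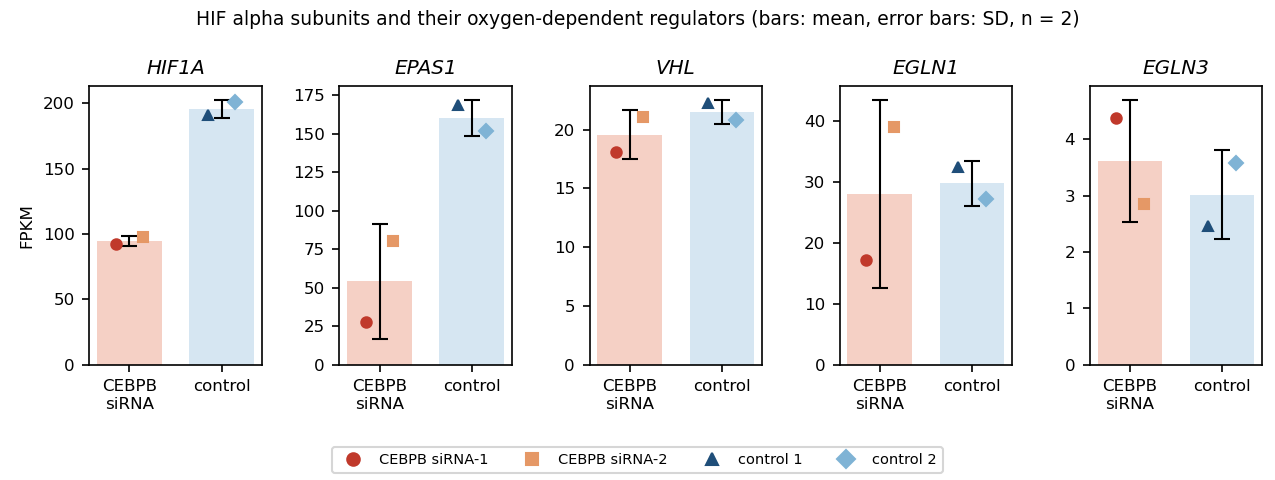
Levels in FPKM of HIF1A, EPAS1, VHL, EGLN1 and EGLN3, with the CEBPB siRNA libraries left and the control libraries right; points are libraries, bars are means and error bars are SD (n = 2). Both CEBPB siRNA libraries lie below both controls for HIF1A (92.3 and 97.7 against 190.7 and 200.6) and EPAS1 (27.9 and 80.4 against 168 and 152), and the libraries overlap for the other 3 genes.

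The 250 bases before the transcription start are shown for HIF1A, EPAS1, CA12 and PFKFB4, because these are the members that passed the threshold in the authors' deposited table. Sequences are those of RefSeq on GRCh38.p14, in the direction of transcription, from the first start listed for each gene. Capitals mark the hypoxia response core (ACGTG or GCGTG) and, in HIF1A alone, also the antioxidant response core bound by NRF2 (TGACNNNGC). The C/EBP core (TTGCNNAA) was searched as well, and all were searched on both strands. A CACGTG run counts as overlapping matches of the hypoxia core.
HIF1A, chr14:61695263-61695512, plus strand: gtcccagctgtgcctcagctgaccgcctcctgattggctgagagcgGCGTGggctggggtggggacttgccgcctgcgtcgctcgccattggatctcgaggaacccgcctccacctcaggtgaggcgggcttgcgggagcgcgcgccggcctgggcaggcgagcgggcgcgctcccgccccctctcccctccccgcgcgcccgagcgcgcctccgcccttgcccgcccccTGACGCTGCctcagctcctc
EPAS1, chr2:46297157-46297406, plus strand: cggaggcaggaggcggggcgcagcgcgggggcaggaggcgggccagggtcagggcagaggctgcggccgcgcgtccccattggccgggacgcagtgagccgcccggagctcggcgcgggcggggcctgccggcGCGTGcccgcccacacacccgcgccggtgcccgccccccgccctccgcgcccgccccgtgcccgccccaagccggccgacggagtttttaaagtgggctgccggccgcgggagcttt
CA12, chr15:63381847-63382096, minus strand: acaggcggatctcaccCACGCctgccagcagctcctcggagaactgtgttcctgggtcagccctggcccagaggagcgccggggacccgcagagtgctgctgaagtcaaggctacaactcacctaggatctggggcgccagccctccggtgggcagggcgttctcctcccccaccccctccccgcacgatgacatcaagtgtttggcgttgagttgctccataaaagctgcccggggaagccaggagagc
PFKFB4, chr3:48556804-48557053, minus strand: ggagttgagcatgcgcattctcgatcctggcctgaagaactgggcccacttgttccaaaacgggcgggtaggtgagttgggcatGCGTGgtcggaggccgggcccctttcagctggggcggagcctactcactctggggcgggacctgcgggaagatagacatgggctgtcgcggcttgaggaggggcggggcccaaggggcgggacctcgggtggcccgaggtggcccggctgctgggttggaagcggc

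Each of these 4 windows holds 1 hypoxia core, and none holds the C/EBP core. The authors' build is named as hg19, and these coordinates come from the RefSeq table alone. Promoters of 31 of the 34 members could be matched, and VEGFA, VHL and NDRG1 were not used here. The hypoxia core was in 21 of the 31 windows, against 43.1% of 27305 windows of the same length over all genes. The C/EBP core was in 1 window, that of EGLN3, against 9.13% over all genes, and the antioxidant core in 5 (ALDOC, GAPDH, HIF1A, PFKL and PKM), against 11.0%. A match is only a run of letters, and its absence from this window says nothing of binding elsewhere. EPAS1 has 80.8% and HIF1A 75.6% G or C in the window shown; the share over all genes was not matched for this.

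The genes that control HIF alpha protein overlapped between the groups. VHL, the substrate receptor of the ligase that marks HIF alpha for degradation, was at 18.1 FPKM with siRNA-1 and 21.1 FPKM with siRNA-2, against 22.3 and 20.8 FPKM in the controls. The groups overlap, and the log2 change was -0.13 ± 0.17 (limma adjusted p = 0.811). EGLN1, the main HIF prolyl hydroxylase, was at 17.2 FPKM with siRNA-1 and 38.9 FPKM with siRNA-2, against 32.4 and 27.1 FPKM in the controls. The siRNA libraries thus lay on opposite sides of the controls, the first below both and the second above both. Between the siRNAs EGLN1 differed by -1.14 ± 0.19 on the log2 scale (siRNA-1 minus siRNA-2, limma adjusted p = 0.0739). EGLN3, a prolyl hydroxylase that is itself a HIF target, was at 4.39 and 2.86 FPKM with the siRNAs, against 2.46 and 3.57 FPKM in the controls, with overlapping groups and a mean normalized count of 86.2.

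Together the 5 HIF pathway genes summed to 160 FPKM with siRNA-1 and 241 FPKM with siRNA-2, against 416 and 404 FPKM in the controls. HIF1A took 76.8% of the summed HIF alpha transcript with siRNA-1 and 54.9% with siRNA-2, against 53.1% and 56.9% in the controls. The balance of the subunits with siRNA-2 was thus within the control range, while siRNA-1 had proportionally less EPAS1. HIF1A-AS1 and HIF1A-AS2, antisense to HIF1A, were both below 1 FPKM in every library. The kit was strand-specific per the labels' protocols, but whether strand was used in counting is not given in the sources used here. Whether reads of a gene and its antisense partner were kept apart is thus not known.

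Known HIF targets showed no common direction. CA12, a cell surface carbonic anhydrase that helps to control pH, was the target at the highest level. It was at 102 FPKM with siRNA-1 and 121 FPKM with siRNA-2, against 162 and 165 FPKM in the controls, so that both siRNA libraries were lower by more than the controls differed. The authors' deposited table has CA12 lower by a log2 change of -0.68 ± 0.22 (adjusted p = 0.0491), just within the threshold and on a mean normalized count of 8111. By limma the change was -0.55 ± 0.16 and did not pass (adjusted p = 0.276). CA9, the related enzyme often used as a hypoxia marker, was low throughout, at 0.378 and 3.62 FPKM with the siRNAs, against 1.36 and 1.30 FPKM in the controls. The siRNA libraries again lay on opposite sides, with a mean normalized count of only 15.1.

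ADM, which encodes the vasodilator peptide adrenomedullin, was at 37.7 FPKM with siRNA-1 and 31.8 FPKM with siRNA-2, against 24.1 and 23.3 FPKM in the controls. Both siRNA libraries lay above both controls, the reverse of CA12. Its log2 change of 0.53 ± 0.17 had a limma adjusted p of 0.312, and the authors' deposited table gives 0.53 with an adjusted p of 0.405. BNIP3, a mitochondrial protein with a role in mitophagy, was at 37.5 and 30.0 FPKM with the siRNAs, against 27.7 and 27.4 FPKM in the controls, again without overlap and without passing (limma adjusted p = 0.604).

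VEGFA, the main growth factor for blood vessels, was at 13.05 FPKM with siRNA-1 and 23.4 FPKM with siRNA-2, against 22.5 and 25.6 FPKM in the controls. Only siRNA-1 stood below the controls. NDRG1, a stress-responsive gene, was at 44.8 FPKM with siRNA-1 and 16.9 FPKM with siRNA-2, against 21.2 and 20.6 FPKM in the controls. For NDRG1 the siRNA libraries lay on opposite sides of both controls, and the difference between them was 1.36 ± 0.16 on the log2 scale (siRNA-1 minus siRNA-2, limma adjusted p = 0.0542). P4HA1, a subunit of the collagen prolyl hydroxylase, hardly varied, with 20.5 and 21.8 FPKM with the siRNAs, against 20.1 and 21.9 FPKM in the controls. ANKRD37 was at 1.55 and 0.410 FPKM with the siRNAs, against 0.323 and 0.909 FPKM in the controls, on a mean normalized count of 5.52, which is too few reads to describe.

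PFKFB4 had the highest log2 change of the tested members. It encodes a bifunctional enzyme that sets the level of fructose 2,6-bisphosphate, the activator of phosphofructokinase. PFKFB4 was at 23.5 FPKM with siRNA-1 and 3.23 FPKM with siRNA-2, against 2.18 and 1.55 FPKM in the controls. Both siRNA libraries lay above both controls, but siRNA-1 stood at 12.6 times the control mean and siRNA-2 at 1.73 times. The authors' deposited table has PFKFB4 higher by a log2 change of 2.47 ± 0.63 (adjusted p = 0.00399), with a mean normalized count of 153. By limma the change was 1.84 ± 0.79 (adjusted p = 0.445), and without siRNA-1 it was 0.57 (adjusted p = 0.396). With siRNA-1 alone against the controls it was 3.11 (limma adjusted p = 0.00716). Between the siRNAs PFKFB4 differed by 2.54 ± 0.27 (siRNA-1 minus siRNA-2, limma adjusted p = 0.0519).

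PFKFB3, the sister enzyme with the stronger kinase activity, had far more FPKM and lay below the controls in both siRNA libraries. It was at 68.5 FPKM with siRNA-1 and 95.5 FPKM with siRNA-2, against 111.6 and 102.9 FPKM in the controls, a log2 change of -0.40 ± 0.21 (limma adjusted p = 0.521). PFKFB4 made up 25.6% of the summed FPKM of these sister genes with siRNA-1 and 3.27% with siRNA-2, against 1.91% and 1.49% in the controls. PDK1, a kinase that inhibits pyruvate dehydrogenase and so limits the conversion of pyruvate to acetyl-CoA, was at 1.90 and 4.59 FPKM with the siRNAs, against 1.38 and 1.77 FPKM in the controls. FPKM and counts part company for PDK1. Its log2 change was 0.65 on the log2(FPKM + 1) scale and 0.08 in the authors' deposited table, on a mean normalized count of 88.0, so its direction is uncertain.

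**Figure D2:**
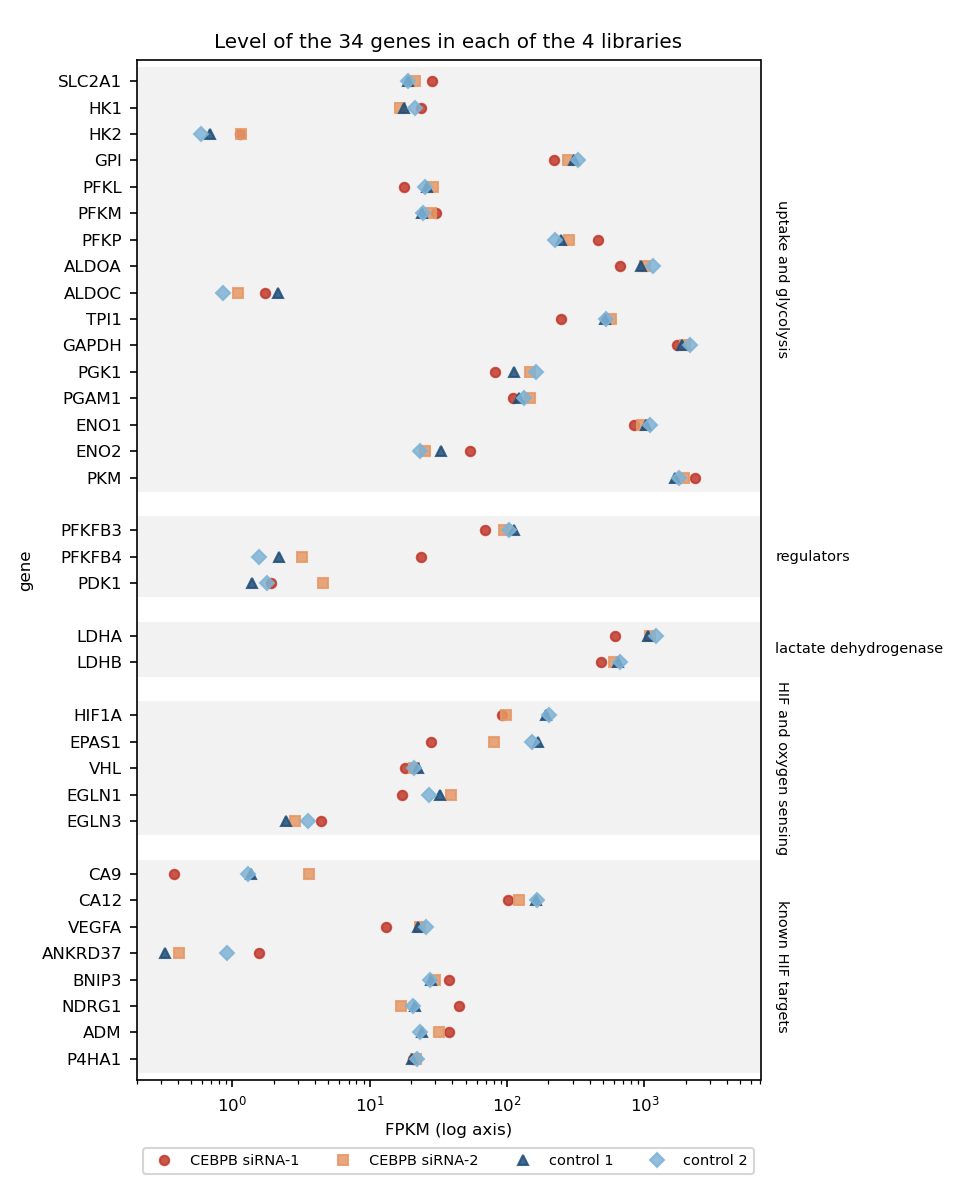
FPKM on a log axis (x) for each of the 34 genes (y), grouped by role; symbols are the 4 libraries. Levels span from 0.323 FPKM for ANKRD37 in control 1 to 2342 FPKM for PKM with siRNA-1, and the siRNA-1 symbol stands apart from the other 3 for PFKFB4, TPI1, PFKP, NDRG1 and EPAS1.

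Glycolytic enzymes were among the abundant transcripts of these cells. Counting both lactate dehydrogenase subunits, 17 enzymes took 1.60% of all FPKM with siRNA-1 and 1.82% with siRNA-2, against 1.69% and 1.80% in the controls. Without mitochondrially encoded genes in the total, the shares were 1.93% and 2.13%, against 2.05% and 2.20%. By either total the siRNA-1 library was below both controls, while siRNA-2 was just above both by the first total and between them by the second. Nothing in glucose uptake and glycolysis was called by limma over both siRNAs or in the authors' deposited table.

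At the entry of the pathway, SLC2A1, the transporter GLUT1, was at 28.6 FPKM with siRNA-1 and 21.2 FPKM with siRNA-2, against 19.0 and 18.8 FPKM in the controls. The groups did not overlap, and the log2 change was 0.36 ± 0.20 (limma adjusted p = 0.542). HK1 carried most of the summed FPKM of HK1 and HK2. It was at 23.6 and 16.6 FPKM with the siRNAs, against 17.6 and 21.2 FPKM in the controls. HKDC1, a further hexokinase isozyme that is not a member, was above HK1 in every library. HKDC1 was at 43.2 and 41.3 FPKM with the siRNAs, against 40.1 and 32.0 FPKM in the controls. HK2, the hexokinase that HIF is known to induce, was at 1.13 and 1.16 FPKM with the siRNAs, against 0.687 and 0.591 FPKM in the controls. HK2 thus took 4.58% and 6.54% of the summed FPKM of HK1 and HK2, against 3.75% and 2.71%. The authors' deposited table gives HK2 a log2 change of 0.90 that did not pass (adjusted p = 0.533). GPI, which isomerises glucose 6-phosphate, was at 219 and 278 FPKM with the siRNAs, against 306 and 330 FPKM in the controls, lower without overlap (log2 change -0.36 ± 0.18, limma adjusted p = 0.504).

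Phosphofructokinase catalyses the committed step of the pathway, and its platelet-type subunit PFKP was the abundant form. PFKP was at 458 FPKM with siRNA-1 and 285 FPKM with siRNA-2, against 248 and 224 FPKM in the controls. Both siRNA libraries were above both controls, siRNA-1 at 1.94 times and siRNA-2 at 1.21 times their mean. The log2 change over both siRNAs was 0.62 ± 0.25 (limma adjusted p = 0.425), and with siRNA-1 alone it was 0.96 (limma adjusted p = 0.0195). The muscle-type PFKM was at 30.3 and 28.0 FPKM with the siRNAs, against 23.8 and 24.2 FPKM. PFKL, the liver type, was at 17.7 and 28.7 FPKM with the siRNAs, against 25.9 and 25.0 FPKM. PFKL was thus below both controls with siRNA-1 and above both with siRNA-2. PFKP took 90.5% of the summed phosphofructokinase FPKM with siRNA-1 and 83.4% with siRNA-2, against 83.3% and 81.9% in the controls.

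Several enzymes of the later steps were lower with siRNA-1 and close to the controls with siRNA-2. TPI1, triosephosphate isomerase, was at 246 FPKM with siRNA-1 and 575 FPKM with siRNA-2, against 514 and 525 FPKM in the controls. Its log2 change was -1.08 with siRNA-1 (limma adjusted p = 0.0140) and 0.15 with siRNA-2 (adjusted p = 0.661), and the siRNAs differed by -1.22 ± 0.15 (siRNA-1 minus siRNA-2, limma adjusted p = 0.0542). ALDOA, the main aldolase, was at 668 and 1015 FPKM with the siRNAs, against 945 and 1153 FPKM. PGK1, phosphoglycerate kinase, was at 81.8 and 146.7 FPKM with the siRNAs, against 112.9 and 161.2 FPKM, a pair of controls that themselves differ. The rare aldolase ALDOC stayed at 2.15 FPKM or less in every library. GAPDH, often used as a reference gene, was at 1734 and 1974 FPKM with the siRNAs, against 1886 and 2138 FPKM, a log2 change of -0.12 ± 0.17. PGAM1, phosphoglycerate mutase, was at 111 and 146 FPKM with the siRNAs, against 123 and 132 FPKM.

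ENO1, the main enolase, was at 841 and 966 FPKM with the siRNAs, against 1032 and 1089 FPKM, lower without overlap (log2 change -0.23 ± 0.16, limma adjusted p = 0.622). ENO2, the neuronal-type enolase, was at 53.5 and 25.1 FPKM with the siRNAs, against 33.0 and 23.3 FPKM, so only siRNA-1 stood above the controls. PKM, pyruvate kinase, stood with GAPDH at the top of the members, at 2342 FPKM with siRNA-1 and 1954 FPKM with siRNA-2, against 1682 and 1787 FPKM in the controls. It was thus higher without overlap (log2 change 0.30 ± 0.17, limma adjusted p = 0.555). The table has 1 value per gene, so the M1 and M2 forms of PKM were not told apart.

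LDHA, the subunit that favours lactate formation, was at 610 FPKM with siRNA-1 and 1105 FPKM with siRNA-2, against 1064 and 1216 FPKM in the controls. LDHA differed from the controls by -0.90 with siRNA-1 (limma adjusted p = 0.0298) and by -0.04 with siRNA-2 (adjusted p = 0.933). LDHB was at 481 and 597 FPKM with the siRNAs, against 644 and 667 FPKM, lower in both without passing (limma adjusted p = 0.571). LDHA made up 55.9% of the pair with siRNA-1 and 64.9% with siRNA-2, against 62.3% and 64.6% in the controls. Pseudogenes of 13 members, found by name, have rows of their own (103 rows), and reads of these members may be split with them. Relative to the level of the gene itself, the sums were largest for TPI1 and BNIP3. In FPKM alone, the sums for LDHA, GAPDH and ENO1 were above those for BNIP3 in every library. The 4 TPI1 pseudogenes summed to 47.0 and 105.7 FPKM with the siRNAs, against 93.8 and 99.1 FPKM, the same order as TPI1 itself. The 4 BNIP3 pseudogenes summed to 5.17 and 3.26 FPKM with the siRNAs, against 4.47 and 3.34 FPKM. BNIP3 itself was at 37.5 and 30.0 FPKM, against 27.7 and 27.4 FPKM.

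**Figure D3:**
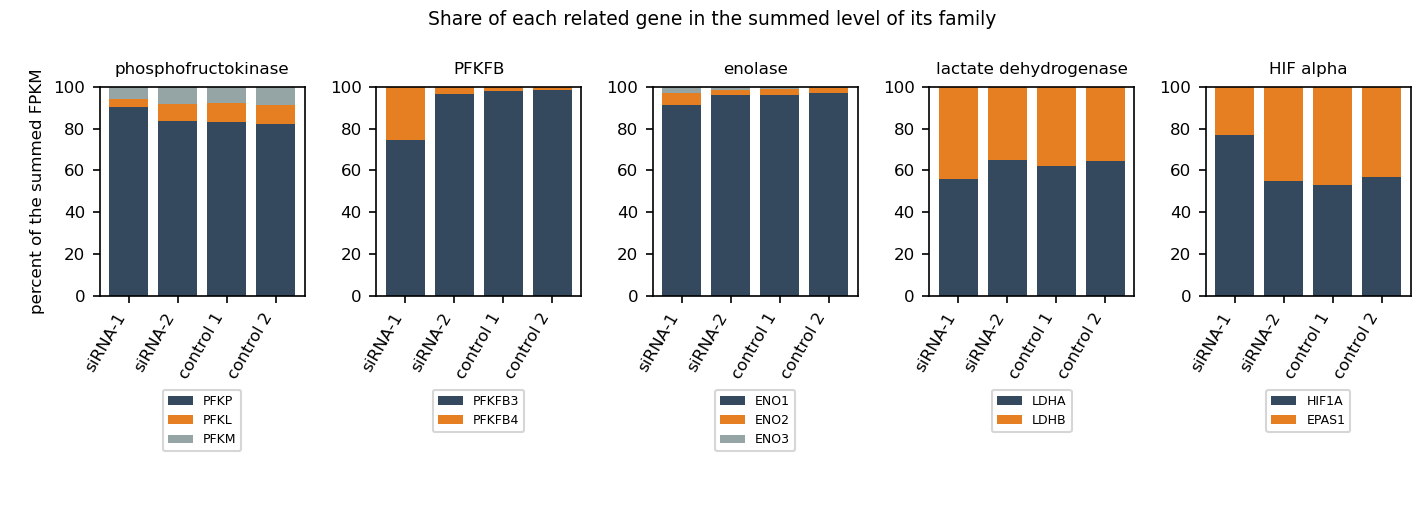
Percent of the summed FPKM (y) that each gene took within 5 families of related genes, for siRNA-1, siRNA-2, control 1 and control 2 (x). In the siRNA-1 library PFKP (90.5%), PFKFB4 (25.6%) and HIF1A (76.8%) take larger shares than in the other 3 libraries and LDHA (55.9%) a smaller one.

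Counted over all members, limma called 0 of 32 higher and 0 of 32 lower with CEBPB knockdown, where 0.235% of all tested genes were called (0.0640% higher and 0.171% lower), and 4 members (HIF1A, EPAS1, CA12 and ADM) had an unadjusted p below 0.05, against 12.2% of all genes. The authors' deposited table calls 1 member higher (PFKFB4) and 3 lower (HIF1A, EPAS1 and CA12) of 34 with an adjusted p, or 11.8%, against 4.14% of 14675 genes (2.71% higher and 1.42% lower). In 8 members both siRNA libraries lay above both controls and in 7 below them, or 46.9% of the 32, against 44.5% of all genes (23.5% above and 21.0% below), so that such separation was about as frequent as elsewhere. The median log2 change of the 32 members was -0.070, against 0.001 over all genes tested. For any one gene, exact permutation of 2 and 2 libraries gives a two-sided p of 0.333 at the smallest.

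The siRNAs were also compared with the controls one at a time. In the fit with separate siRNA groups, limma called 4 members higher (PFKFB4, PFKP, NDRG1 and ADM) and 7 lower (HIF1A, EPAS1, TPI1, LDHA, PFKFB3, CA12 and VEGFA) with siRNA-1, or 34.4% of 32, against 12.7% of all genes (6.24% higher and 6.41% lower). With siRNA-2 it called 0 higher and 0 lower, against 0.490% of all genes (0.206% higher and 0.284% lower), and 6 members had an unadjusted p below 0.05, against 14.7% of all genes. These contrasts share the controls. The log2 value departed by over 0.5 from the control mean for 19 members with siRNA-1 and 5 with siRNA-2, or 59.4% and 15.6%, against 32.0% and 16.6% of all genes. siRNA-1 lay further from the control mean than siRNA-2 for 28 of the 32, or 87.5%, against 64.6% of all genes.

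Tested directly, siRNA-1 minus siRNA-2, limma called 0 members in either direction, against 0.441% of all genes (0.114% higher and 0.327% lower), while 16 of 32 members had an unadjusted p below 0.05, against 22.4% of all genes. EPAS1 came nearest, at -1.49 ± 0.16 (adjusted p = 0.0505), followed by PFKFB4, TPI1, NDRG1 and CA9, the last with -1.75 ± 0.26 (adjusted p = 0.0666). HIF1A differed by only -0.08 ± 0.14 (adjusted p = 0.781). When genes needed a mean of 5 FPKM, the same comparison called 4 of 28 members higher and 7 lower with siRNA-1, against 5.05% of 9511 genes higher and 8.55% lower, so calls were more frequent over all genes as well.

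**Figure D4:**
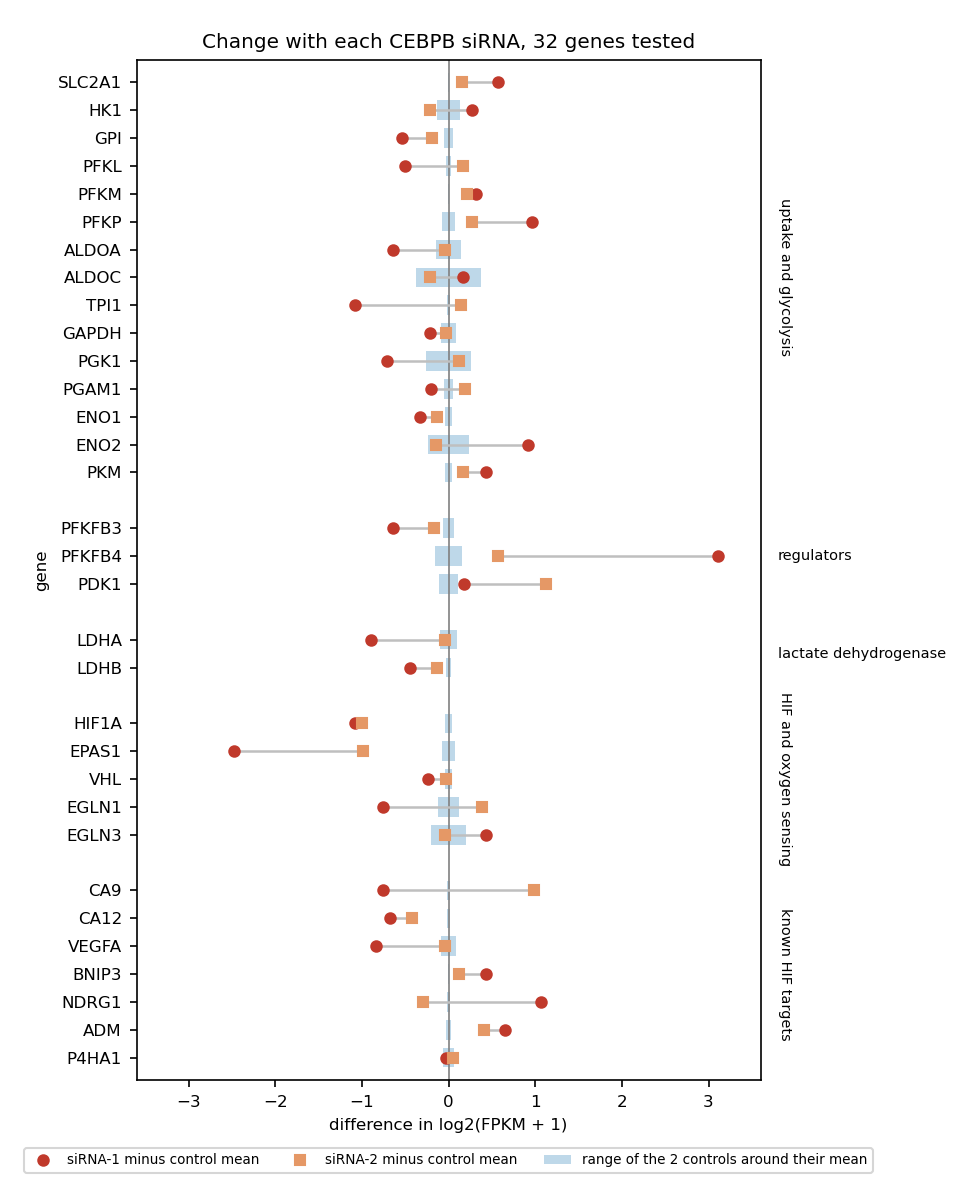
Difference in log2(FPKM + 1) (x) of siRNA-1 (circles) and siRNA-2 (squares) from the control mean for the 32 tested members (y), with the range of the controls as bars. Circle and square lie close for HIF1A (-1.08 and -0.99) and lie far apart for PFKFB4 (3.11 and 0.57) and EPAS1 (-2.48 and -0.98).

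FPKM and the authors' counts gave the same sign for 29 of the 32 tested members. The other 3, PGAM1, EGLN1 and P4HA1, were close to 0 in at least one source. By over 0.5 on the log2 scale the sources differed for PFKFB4. This was so also for PDK1. The log2(FPKM + 1) scale understates the change of low genes in general. Here it gave the smaller change for PFKFB4 (1.84 against 2.47) and the larger one for PDK1 (0.65 against 0.08). The reason was not tested for either gene.

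**Figure D5:**
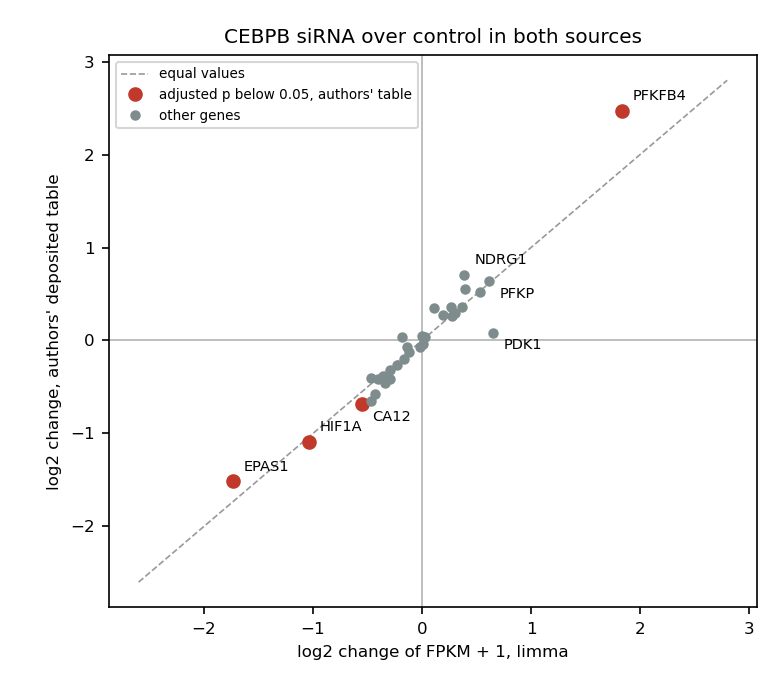
Log2 change of CEBPB siRNA over control from limma on log2(FPKM + 1) (x) against that of the authors' deposited table (y) for the 32 tested members; the dashed line marks equal values. Red points passed the threshold in the authors' table (HIF1A, EPAS1, CA12 and PFKFB4), and PDK1 lies off the line at 0.65 and 0.08.

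Genes around the pathway were taken from lists drawn up by function. Beside the counts of these lists, limma called 0.235% of all tested genes, and 12.2% had an unadjusted p below 0.05. The authors' deposited table calls 4.14% of 14675 genes. Among 17 partners and regulators of HIF (16 tested), limma called 0, with 1 at an unadjusted p below 0.05, and the authors' deposited table calls ARNT2 higher (log2 change 0.89, adjusted p = 0.0136). ARNT2, a dimerisation partner of HIF alpha, was at 10.6 and 12.2 FPKM with the siRNAs, against 6.38 and 5.29 FPKM in the controls. In the list of 51 other HIF targets (41 tested), limma called 0, with 6 at an unadjusted p below 0.05. The authors' deposited table calls PDGFB (6.465) and CDKN1A (1.15) higher and TF (-3.24) lower, or 6.38% of 47 genes with an adjusted p. The median log2 change of that list was 0.14. PDGFB, a platelet-derived growth factor chain, was at 31.6 FPKM with siRNA-1 and 2.698 FPKM with siRNA-2, against 0.149 and 0.216 FPKM. CDKN1A, a cell cycle inhibitor also induced by p53, was at 42.7 and 25.2 FPKM with the siRNAs, against 14.6 and 15.5 FPKM. TF was low throughout, at 0.137 and 0.0995 FPKM with the siRNAs, against 0.967 and 1.11 FPKM. Its mean normalized count was only 15.3, and it was below the level tested by limma.

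Genes of pyruvate and lactate handling had a median log2 change of -0.32 over 20 tested genes, against 0.001 over all genes. Of the 20, 10 were lower without overlap and 3 higher, against 21.0% lower and 23.5% higher over all genes. Limma called 0 of the 20, with 5 at an unadjusted p below 0.05, against 12.2% of all genes. The authors' deposited table calls MPC2 lower (-1.20, adjusted p = 0.00868), or 5% of the list, against 4.14% of all genes. MPC2, a subunit of the mitochondrial pyruvate carrier, was at 11.8 FPKM with siRNA-1 and 21.5 FPKM with siRNA-2, against 34.3 and 41.4 FPKM in the controls. PDK4, a sister kinase of PDK1, was at 3.87 and 15.3 FPKM with the siRNAs, against 44.6 and 45.2 FPKM, and passed in neither source over both siRNAs (limma adjusted p = 0.191). In the fit with separate siRNA groups PDK4 was lower with siRNA-1 (log2 change -3.24, limma adjusted p = 0.00552) and with siRNA-2 (-1.50, limma adjusted p = 0.0444).

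Of 30 further glycolytic isozymes and glucose carriers (16 tested), 0 were called in limma or in the authors' deposited table. An unadjusted limma p below 0.05 was found for 1 of them, against 12.2% of all genes. The gene was ENO3, the muscle enolase, at 28.6 and 16.1 FPKM with the siRNAs, against 9.59 and 7.99 FPKM (log2 change 1.21 ± 0.30, limma adjusted p = 0.214). In gluconeogenesis and glycogen metabolism (17 listed, 12 tested) limma called 0, with 2 at an unadjusted p below 0.05. The authors' deposited table calls PPP1R3C higher (1.44, adjusted p = 0.0467), or 7.69% of 13 genes, against 4.14% of all genes. PPP1R3C, a subunit that targets a phosphatase to glycogen, was at 4.46 and 3.70 FPKM with the siRNAs, against 1.32 and 1.66 FPKM. Of 17 transcription factors and modulators of glycolytic genes (14 tested), limma called CEBPB alone. The authors' deposited table also calls PPARGC1A lower (-1.76, adjusted p = 0.0182), a coactivator of mitochondrial biogenesis, at 0.641 and 2.97 FPKM with the siRNAs, against 5.38 and 7.17 FPKM.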

How the data were processed

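RNA-seq (76-base single-end reads, strand-specific kit, per the labels' protocols) gave 1 table of all genes. Its 4 library columns are taken as FPKM made by the authors: per the file headers the columns are named as StringTie names genes, but no unit is stated, and the totals differ between libraries. Per the file headers, the authors' deposited DESeq2 columns hold the mean normalized count (a signal scaled by size factors), the log2 fold change with its SE, the Wald statistic (a score, not used) and the p-value with its adjusted p-value. The submitters' processing notes name, without roles, DESeq2 1.26.0, HTSeq 0.13.5, StringTie 2.1.4, STAR 2.7.0d and the build hg19. Raw counts per library were not analysed here, so the depth of each library is unknown.

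CEBPB siRNA was compared with control by limma 3.58.1 (R 4.3.3) with a mean-variance trend on log2(FPKM + 1), over the 14068 genes whose mean reached 1 FPKM; p-values were adjusted by Benjamini-Hochberg and called below 0.05. A 3-group fit with 1 residual degree of freedom separated the siRNAs. The code was tested on simulated data. Genes were named if called in either source, among the 12 largest non-overlapping changes, most abundant in their role, in the HIF system, or among the 5 smallest p-values between siRNAs; in other lists, if called, else the smallest p. The members and lists were chosen with earlier results of these data known. Alternatives changed the pseudocount, filter, scaling, trend, libraries and model.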

Additional observations from a re-analysis of the deposited data

Results flagged for a closer look

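Between the siRNAs, the direct test called 62 of the 14068 genes tested, 16 higher and 46 lower with siRNA-1, and none of them was among the 34. Of the 62, 2 are in the lists of related genes described here. PDGFB differed by 3.14 on the log2(FPKM + 1) scale (siRNA-1 minus siRNA-2, 3-group limma adjusted p = 0.0404), with 31.6 FPKM for siRNA-1 and 2.698 FPKM for siRNA-2. PDK4 differed by -1.74 (3-group limma adjusted p = 0.0467), with 3.87 FPKM for siRNA-1 and 15.3 FPKM for siRNA-2. Over the alternatives with a test, the adjusted p ran from 0.00066 to 0.0791 for PDGFB and from 0.000278 to 0.0941 for PDK4. Each siRNA is 1 library, so a difference between siRNAs and one between libraries cannot be told apart.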

How the results depend on the processing

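Among the members, the count called higher with CEBPB knockdown was 0 by limma, 2 in the 3-group fit and 1 in the authors' deposited table, and ran from 0 to 4 when 1 library was left out. The count called lower was 0, 3 and 3, and ran from 0 to 7; the 4 and 7 came without siRNA-2. Over all genes, 3.82% were called higher and 3.08% lower in the 3-group fit, and 6.18% and 6.35% without siRNA-2, against 0.0640% and 0.171% by limma on both groups. The median log2 change ran from -0.2251 to -0.0272 when 1 library was left out. Between the siRNAs, 4 members were called higher and 7 lower at a mean of at least 5 FPKM, 2 and 2 with median-of-ratios scaling, and 1 higher with no filter. Over all genes the same settings called 480 higher and 813 lower of 9511, 186 and 169 of 14068, and 909 and 1006 of 27320. The cause was not tested.

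Directions turned for values near 0: ALDOC (0.003) and CA9 (-0.105) with a pseudocount of 0.1, EGLN1 (0.0322), P4HA1 (-0.0391) and PGAM1 (0.0452) in the authors' deposited table, PGAM1 (0.0121) with upper-quartile scaling, and HIF1A between the siRNAs (0.0036) with median-of-ratios scaling. Leaving out 1 library turned these log2 changes, given as lowest and highest: ALDOC -0.4011 and 0.3586, CA9 -0.7607 and 0.9856, EGLN1 -0.755 and 0.3824, EGLN3 -0.0437 and 0.4379, ENO2 -0.1403 and 0.923, HK1 -0.2113 and 0.2751, NDRG1 -0.2911 and 1.0671, P4HA1 -0.0498 and 0.0665, PFKL -0.5002 and 0.1678, PGAM1 -0.1971 and 0.1902, PGK1 -0.7147 and 0.1204, TPI1 -1.0767 and 0.1459.

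With the replicate number as a block, 0 members were called in either direction and the median stayed at -0.0696. The deviations of same-numbered libraries had a correlation of 0.0754 (2 pairs), which is confounded with siRNA identity and cannot settle whether the numbers pair the samples; the labels give only a shared number. Without either control, the difference between the siRNAs is a value with no test. With 2 libraries a group and 1 per siRNA, small changes were not detectable. Large ones could also go uncalled over both siRNAs, as for PFKFB4 (1.84, limma adjusted p = 0.445) and EPAS1 (-1.73, limma adjusted p = 0.252).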
